A study of Mus musculus with 15 samples.

Results

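The mRNAs of 9 subunits of Polycomb repressive complex 1 (PRC1), namely Ring1, Rnf2, Bmi1, Pcgf2, Cbx2, Cbx7, Cbx8, Phc1 and Phc2, were followed in mouse B cells as they were activated, became plasmablasts and were treated with GSK343, a small molecule that inhibits EZH2, the enzyme that writes H3K27me3. The members were taken by gene symbol from the table of 21669 genes with a symbol, and 9 of 9 were found. All 9 were among the 11299 genes tested, which had at least 1 RPKM (reads per kilobase of gene per 1000000 reads) in at least 3 of 15 columns. Pcgf2 reached that minimum in the cultured cells and lay below it in the naive cells.

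The data comprise 15 RNA-seq libraries in 5 groups of 3, all from female C57BL/6J mice aged 6 to 9 weeks. Naive B cells (nB) were splenic cells left after CD43 depletion (CD43-), with no stimulation. The other cells were CD43- B cells cultured for 3 days with LPS, Il2 and Il5 and either DMSO, the vehicle, or 2 µM GSK343, and were then sorted as activated B cells (actB; B220+GL7+CD138-) or plasmablasts (Pb; CD138+). The labels of the Pb GSK343 libraries list Il6 where the others list Il5. The titles number the libraries of each group m1 to m3. The study describes its treated and control libraries as biological replicates, and the labels do not name the animals or cultures, so p-values measure the spread between these libraries. The cells are mixed cultures sorted on surface markers, and DMSO is the control for GSK343 but not for culture itself, which separates nB from the other groups.

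Between 19421830 and 26307413 reads were assigned to genes per library. The nB libraries numbered 1 and 2 differed by less than the sampling noise (chi-square per degree of freedom 0.00947 over 14410 genes, against at least 3.57 for other pairs within a group), so their mean was counted as 1 sample and nB has n = 2. Among the cultured cells the libraries numbered 2 stood apart, most in actB, where they differed from libraries 1 and 3 by 16.7 to 29.7 per degree of freedom and libraries 1 and 3 from each other by 3.8 with DMSO and 6.07 with GSK343. Without the 4 of them, 1 call on a subunit was lost, that of Cbx8 from nB to Pb (adjusted p = 0.0967). The 7 B cell markers were present in every group and the plasmablast markers summed to 1412 to 1569 RPKM in Pb, against 327 to 405 in actB. The nB libraries also carried markers of other cells. The 8 T and NK cell markers summed to 30.4 to 33.3 RPKM there, with 8 of 8 at a mean of 1 RPKM or more, and to at most 2.18 RPKM in any cultured library. Myeloid markers summed to 201 to 249.3 RPKM in nB, with Lyz2 the highest, and to 4.33 to 19.8 RPKM in the cultured cells, and erythroid markers to 30.6 to 138 RPKM in nB and 1.29 to 18.9 RPKM in the cultured cells. Their part in the differences between nB and the cultured cells was not tested. In bulk samples like these, fewer cells of a type and less RNA per cell cannot be told apart.

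PRC1 is a family of complexes that place a single ubiquitin on histone H2A at H2AK119 and compact chromatin. Each has a catalytic RING protein (RING1 or RNF2, also called RING1B) bound to 1 of a set of PCGF proteins, among them BMI1 (PCGF4) and PCGF2 (MEL18). In canonical PRC1 these are joined by a CBX protein, whose chromodomain reads H3K27me3 left by PRC2, and by a PHC protein, whose SAM domain polymerises and clusters the complex. In variant PRC1, RYBP or YAF2 takes the place of the CBX and PHC subunits. In B lineage cells BMI1 is best known as a repressor of the Cdkn2a locus.

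**Figure D1:**
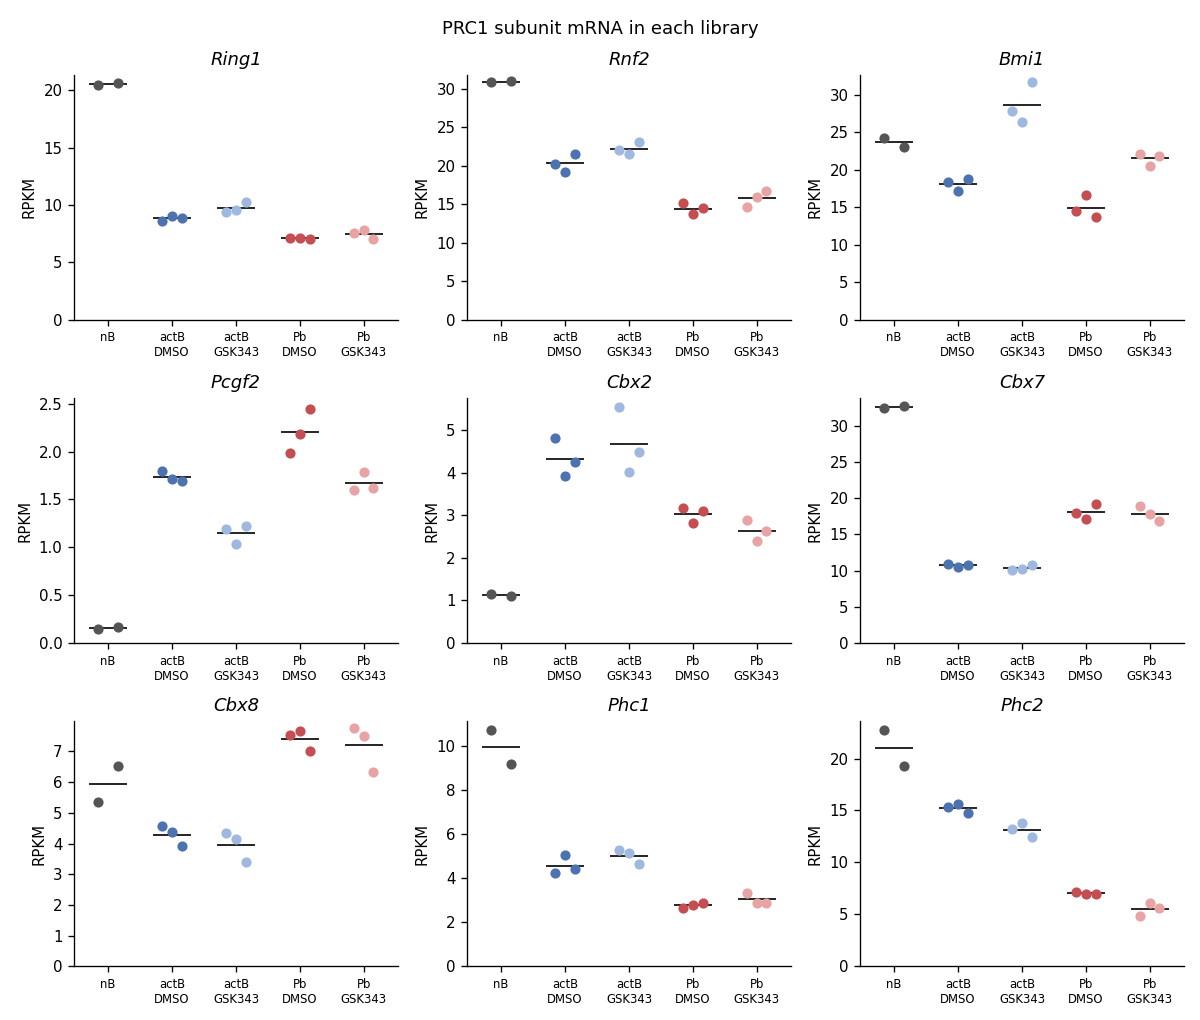
RPKM of each PRC1 subunit in every library (points) with the group mean (line), for nB (n = 2, libraries 1 and 2 as 1 point), actB and Pb with DMSO or GSK343 (n = 3 each). Each vertical axis starts at 0. Pcgf2 and Cbx2 were lowest in nB, Cbx7 fell from nB to actB and was higher again in Pb, and Bmi1 was higher with GSK343 in both cell types.

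Activation was examined by comparing actB with nB, both without the inhibitor. All 9 subunits changed: Pcgf2 and Cbx2 rose and the other 7 fell (limma with Benjamini-Hochberg adjustment, adjusted p under 0.05). This is to be read against a background in which 77.2% of the genes tested changed, 40.9% upward and 36.3% downward. The median log2 fold change was -0.45 over the 9 members and 0.05 over all genes tested. In each of the 9 genes the actB and nB libraries did not overlap, as in 83.4% of the genes tested.

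The catalytic subunits both fell. Ring1 (Entrez 19763, mm9 chr17:34157737-34161625, minus strand), one of the RING-type E3 ligases of the complex, was at 20.5 RPKM in the merged nB sample and 20.7 in nB library 3, and at 8.58, 9.09 and 8.92 RPKM in actB libraries 1 to 3. Its log2 fold change was -1.19 ± 0.06 (SE; adjusted p = 1.9e-09). Rnf2 (Entrez 19821, chr1:153316536-153347953, minus strand), the main H2AK119 ligase in many cell types, was at 30.9 and 31.0 RPKM in nB and at 20.3, 19.2 and 21.5 RPKM in actB, a log2 fold change of -0.60 ± 0.07 (adjusted p = 4.5e-06). Ring1 fell more than Rnf2. The log2 ratio of Rnf2 to Ring1 went from 0.59 ± 0.01 (SD, n = 2) in nB to 1.196 ± 0.11 (SD, n = 3) in actB, with no overlap between the groups (exact permutation test, two-sided, p = 0.1, the smallest value that 3 against 2 allows).

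The PCGF subunits moved in opposite directions. Bmi1 (Entrez 12151, chr2:18598645-18608256, plus strand) was at 24.3 and 23.0 RPKM in nB and at 18.3, 17.1 and 18.8 RPKM in actB, a log2 fold change of -0.38 ± 0.09 (adjusted p = 0.00167). Pcgf2 (Entrez 22658, chr11:97550137-97561811, minus strand), its close paralog, was at 0.148 and 0.164 RPKM in nB, which is 10 to 11 reads a library, and at 1.80, 1.71 and 1.69 RPKM in actB. The ratio of the group means was 11.1, while the fitted log2 fold change of 2.29 ± 0.10 (adjusted p = 6.42e-10) is on the scale of log2(RPKM + 0.25), which understates the change of a gene this low. Even in actB, Pcgf2 mRNA lay at percentile 13.9 of the genes tested. The Bmi1 to Pcgf2 ratio fell from 152 in nB to 10.4 in actB (geometric means; log2 difference -3.86, no overlap, exact permutation p = 0.1).

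The CBX subunits, the readers of H3K27me3, also split. Cbx2 (Entrez 12416, chr11:118884276-118892584, plus strand) rose from 1.15 and 1.10 RPKM in nB to 4.81, 3.93 and 4.25 RPKM in actB, a log2 fold change of 1.73 ± 0.13 (adjusted p = 6.9e-08). Cbx7 (Entrez 52609, chr15:79746237-79801549, minus strand) fell the most of the 9 on this scale, from 32.5 and 32.7 RPKM to 10.9, 10.5 and 10.8 RPKM, a log2 fold change of -1.58 ± 0.06 (adjusted p = 2.21e-10). Cbx8 (Entrez 30951, chr11:118897619-118902283, minus strand) fell least clearly, from 5.36 and 6.52 RPKM to 4.58, 4.38 and 3.91 RPKM, a log2 fold change of -0.44 ± 0.12 (adjusted p = 0.00521). Without nB library 3 its log2 fold change was -0.31 (adjusted p = 0.0848). Cbx2 and Cbx8 are neighbours 5034 bases apart on chromosome 11 and changed in opposite directions.

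The PHC subunits both fell. Phc1 (Entrez 13619, chr6:122267749-122290579, minus strand) was at 10.7 and 9.20 RPKM in nB and 4.22, 5.05 and 4.40 RPKM in actB, a log2 fold change of -1.09 ± 0.10 (adjusted p = 6.32e-07). Phc2 (Entrez 54383, chr4:128331982-128430125, plus strand) was at 22.7 and 19.3 RPKM in nB and 15.4, 15.7 and 14.8 RPKM in actB, a log2 fold change of -0.45 ± 0.09 (adjusted p = 0.000537). No exon of another annotated gene overlapped an exon of any of the 9 members (GENCODE vM1, mm9).

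The passage from actB to Pb was measured in separate sets of libraries, with DMSO and with GSK343, which share no library. Both sets carry the same replicate numbers and share an estimate of the spread in the fit, so they are not independent replications. In each set 9 of 9 subunits changed, 3 upward and 6 downward, against 69.7% of the genes tested with DMSO (27.3% higher, 42.4% lower) and 70.5% with GSK343 (26.4% higher, 44.2% lower). The 3 genes that rose, Pcgf2, Cbx7 and Cbx8, and the 6 that fell were the same in the DMSO and the GSK343 set. The median over all genes tested was itself shifted, by -0.12 with DMSO and -0.14 with GSK343 on the log2 scale, so small falls are to be read relative to it. With DMSO 3086 genes were higher and 4791 lower, and 3813 and 3899 when libraries were scaled to the same median. With GSK343 these counts were 2978 and 4992, and 3832 and 3871 after median scaling.

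**Figure D2:**
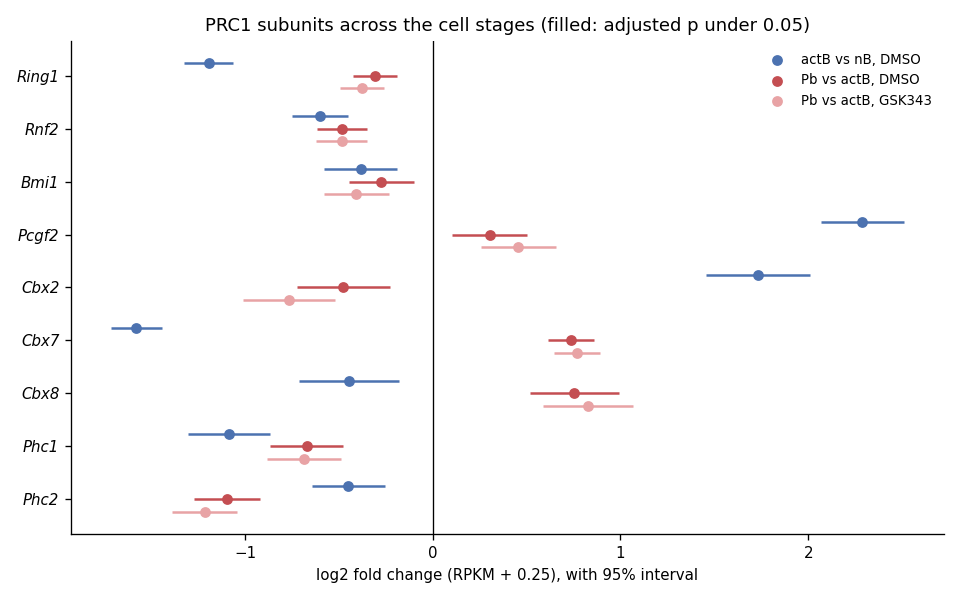
Log2 fold change (RPKM + 0.25) of each PRC1 subunit from nB to actB and from actB to Pb, the latter with DMSO and with GSK343 (points, with 95% intervals; filled where the adjusted p is under 0.05). All points are filled. Cbx7 and Cbx8 fell on activation and rose in Pb, Cbx2 did the opposite, and the DMSO and GSK343 intervals for actB to Pb overlap for every gene.

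Cbx7 and Cbx8 rose together in plasmablasts. Cbx7 went from 10.9, 10.5 and 10.8 RPKM in actB to 18.0, 17.1 and 19.2 RPKM in Pb with DMSO, a log2 fold change of 0.74 ± 0.06 (adjusted p = 1.43e-07), and rose by 0.77 ± 0.06 with GSK343 (adjusted p = 9.06e-08). Cbx8 went from 3.91 to 4.58 RPKM in actB to 7.53, 7.66 and 7.004 RPKM in Pb with DMSO, a log2 fold change of 0.76 ± 0.11 (adjusted p = 5.14e-05), and rose by 0.83 ± 0.11 with GSK343 (adjusted p = 2.27e-05). The Cbx7 level in Pb stayed below that of nB (log2 fold change -0.84 ± 0.06, adjusted p = 5.19e-08). Cbx8 was higher in Pb than in nB by 0.31 ± 0.12 (adjusted p = 0.0335). That Cbx8 call was lost without nB library 1 (0.17, adjusted p = 0.306), without Pb DMSO library 1 (0.30, adjusted p = 0.0726) and without Pb DMSO library 2 (0.29, adjusted p = 0.07875).

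Phc2 had the largest change of the 9 in this step. It was at 15.4, 15.7 and 14.8 RPKM in actB and at 7.11, 6.94 and 6.97 RPKM in Pb with DMSO, a log2 fold change of -1.10 ± 0.08 (adjusted p = 9.67e-08), and it fell by 1.215 ± 0.08 (adjusted p = 3.51e-08) with GSK343. Phc1 fell by 0.67 ± 0.09 with DMSO, to 2.65, 2.77 and 2.86 RPKM (adjusted p = 2.54e-05), and by 0.69 ± 0.09 with GSK343 (adjusted p = 2.03e-05). From nB to Pb, Phc1 fell by 1.76 ± 0.10 (adjusted p = 3.73e-09) and Phc2 by 1.55 ± 0.09 (adjusted p = 4.15e-09).

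Both catalytic subunits were lower again in Pb. Rnf2 fell by 0.48 ± 0.06 with DMSO, to 15.1, 13.7 and 14.5 RPKM (adjusted p = 1.61e-05), and by 0.49 ± 0.06 with GSK343 (adjusted p = 1.5e-05). Ring1 fell by 0.31 ± 0.05 with DMSO, to 7.13, 7.12 and 7.09 RPKM (adjusted p = 0.000241), and by 0.37 ± 0.05 with GSK343 (adjusted p = 4.44e-05). Their ratio did not separate actB from Pb (log2 difference -0.17 with DMSO, exact permutation p = 0.2). Over the whole course from nB to Pb, the group mean of Ring1 went from 20.6 to 7.11 RPKM and that of Rnf2 from 30.9 to 14.5 RPKM.

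Cbx2 fell back by 0.48 ± 0.11 with DMSO, to 3.18, 2.83 and 3.10 RPKM (adjusted p = 0.00237), and by 0.77 ± 0.11 with GSK343 (adjusted p = 5.93e-05). Its level in Pb remained above that of nB (log2 fold change 1.26 ± 0.13, adjusted p = 1.04e-06). Pcgf2 rose further, to 1.98, 2.19 and 2.44 RPKM with DMSO (log2 fold change 0.30 ± 0.09, adjusted p = 0.0103), a call lost without Pb DMSO library 3 (0.23, adjusted p = 0.0516), and by 0.46 ± 0.09 with GSK343 (adjusted p = 0.000687). Bmi1 fell by 0.27 ± 0.08 with DMSO, to 14.5, 16.6 and 13.8 RPKM (adjusted p = 0.00836). That call was lost when libraries were scaled to the same median (fall of 0.16, adjusted p = 0.09955). With GSK343 Bmi1 fell by 0.41 ± 0.08 (adjusted p = 0.00056). Directly against nB, 9 of 9 subunits differed in Pb with DMSO, 3 higher and 6 lower, where 80.6% of the genes tested differed (39.5% higher, 41.1% lower).

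Levels of different genes depend on the gene lengths used. The deposited length of Cbx7 was 11541 bases and the exons of GENCODE vM1 cover 3790, while for Cbx8 the deposited length was 1393 bases and the exons cover 3675. For Ring1 the deposited length was 2034 bases and the exons cover 3243. With the GENCODE lengths the mean of Cbx7 was 99.2 RPKM in place of 32.6 in nB, that of Cbx8 2.25 in place of 5.94, and that of Ring1 12.9 in place of 20.6. Among the members, Cbx7 then had the highest mean level in nB and in actB and Pb with DMSO, where with the deposited lengths Rnf2 was higher than Cbx7 in actB and Cbx7 was the highest in nB and in Pb. The ratio of the RPKM of 1 gene between groups does not depend on its length, but its fitted log2 fold change does through the pseudocount, most for low genes such as Pcgf2. The level of a ratio between paralogs, such as Rnf2 to Ring1, depends on the lengths, and its log2 difference between groups does not.

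EZH2 inhibition was tested by comparing GSK343 with DMSO within each cell type. In actB 2 of 9 subunits changed, Bmi1 upward and Pcgf2 downward, against 10.4% of the genes tested (8.2% higher, 2.16% lower). In Pb 3 of 9 changed, Bmi1 upward and Pcgf2 and Phc2 downward, against 12.9% of the genes tested (7.9% higher, 5% lower). When replicate numbers were fitted as a block, 2 and 3 subunits were again called, against 21.4% of the genes tested in actB and 24.6% in Pb (merged nB sample as number 1; as number 2, 17.1% and 20.5%). The share of subunits called in actB was near this background. In actB the calls split into 926 higher and 244 lower, and into 690 and 370 after median scaling. Fits without any 1 of the libraries numbered 1 or 3 called 5.38% to 6.27% of the genes tested in actB and 6.11% to 8.15% in Pb. The median log2 fold change over the 9 members was 0.10 in actB and -0.02 in Pb, and over all genes tested 0.03 and 0.00.

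Bmi1 with DMSO was at 18.3, 17.1 and 18.8 RPKM in actB libraries 1 to 3 and with GSK343 at 27.8, 26.4 and 31.8 RPKM. In Pb it was at 14.5, 16.6 and 13.8 RPKM with DMSO and at 22.1, 20.5 and 21.8 RPKM with GSK343. The groups did not overlap in either cell type, as in 25.9% of the genes tested in actB and 34.1% in Pb, and the GSK343 library was higher at 3 of 3 replicate numbers in each. On the log2 scale Bmi1 rose by 0.65 ± 0.08 in actB (95% interval 0.48 to 0.83, adjusted p = 0.000579) and 0.52 ± 0.08 in Pb (0.35 to 0.70, adjusted p = 0.0017), or 1.58-fold and 1.44-fold as ratios of geometric means. With GSK343 the actB mean of 28.7 RPKM lay above the 23.6 RPKM of nB. Both calls held in all 13 alternative settings and in each fit that left out 1 library.

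Pcgf2 went the other way. It was at 1.80, 1.71 and 1.69 RPKM in actB with DMSO and at 1.19, 1.04 and 1.219 RPKM with GSK343, a log2 fold change of -0.50 ± 0.09 (95% interval -0.70 to -0.31, adjusted p = 0.00504). In Pb it was at 1.98, 2.19 and 2.44 RPKM with DMSO and at 1.60, 1.79 and 1.62 RPKM with GSK343, a log2 fold change of -0.35 ± 0.09 (-0.55 to -0.15, adjusted p = 0.025). The groups did not overlap in either cell type, as in 25.9% of the genes tested in actB and 34.1% in Pb. The GSK343 library was lower at 3 of 3 replicate numbers in each cell type. These values rest on 75 to 149 reads a library. The Pb call was lost in 4 of 6 fits that left out 1 library (those without Pb DMSO library 2 or 3 or without Pb GSK343 library 1 or 3; adjusted p at most 0.102), with the compared groups fitted alone (adjusted p = 0.0624) and with no filter on expression (adjusted p = 0.0512).

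**Figure D3:**
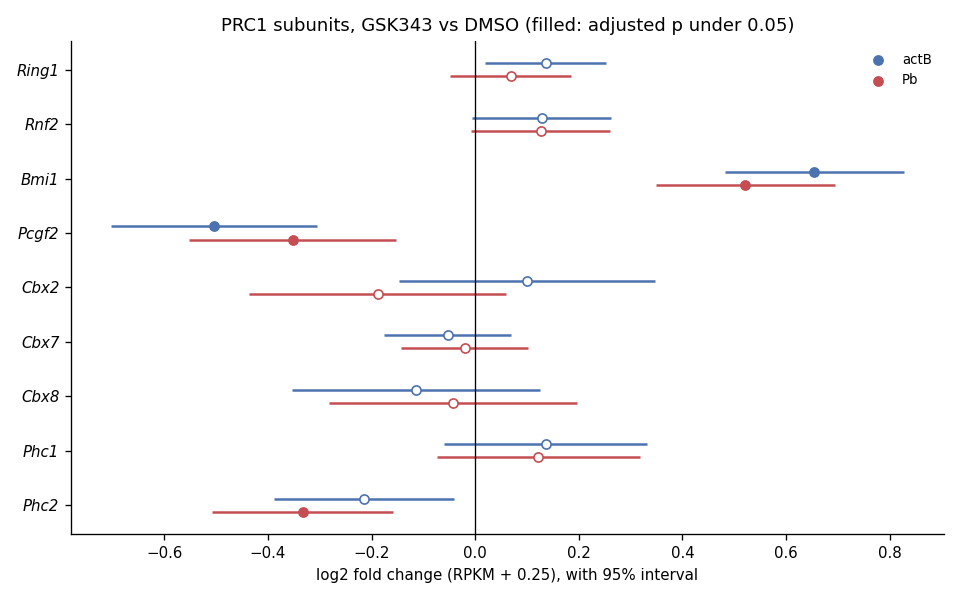
Log2 fold change (RPKM + 0.25) of each PRC1 subunit with GSK343 relative to DMSO, for actB and Pb (points, with 95% intervals; filled where the adjusted p is under 0.05). Bmi1 lies right of 0 and Pcgf2 left of 0 in both cell types, Phc2 is filled in Pb, and the open points lie between -0.21 and 0.14.

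The ratio of Bmi1 to Pcgf2 rose with GSK343 from 10.4 to 24.9 in actB and from 6.78 to 12.9 in Pb (geometric means). The log2 differences were 1.26 and 0.93, with no overlap between groups (exact permutation p = 0.1 each, the smallest that 3 against 3 allows). In a description added after the values were seen, Bmi1 made up 25.0% ± 0.78 of the summed RPKM of the 6 Pcgf genes in actB with DMSO and 33.3% ± 2.3 with GSK343, and 25.6% ± 2.5 and 31.9% ± 0.75 in Pb (SD, n = 3 each). In nB its share was 39.8% ± 2.4 (SD, n = 2).

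**Figure D4:**
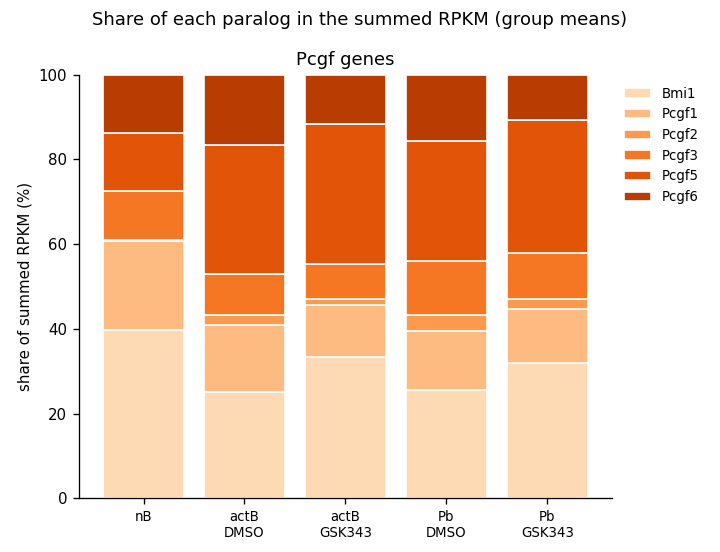
Mean share of each gene in the summed RPKM of the 6 Pcgf genes, in percent, for nB (n = 2) and the 4 cultured groups (n = 3 each), as stacked bars. Bmi1 takes 33.3% of the sum with GSK343 and 25.0% with DMSO in actB, and 31.9% and 25.6% in Pb.

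**Figure D5:**
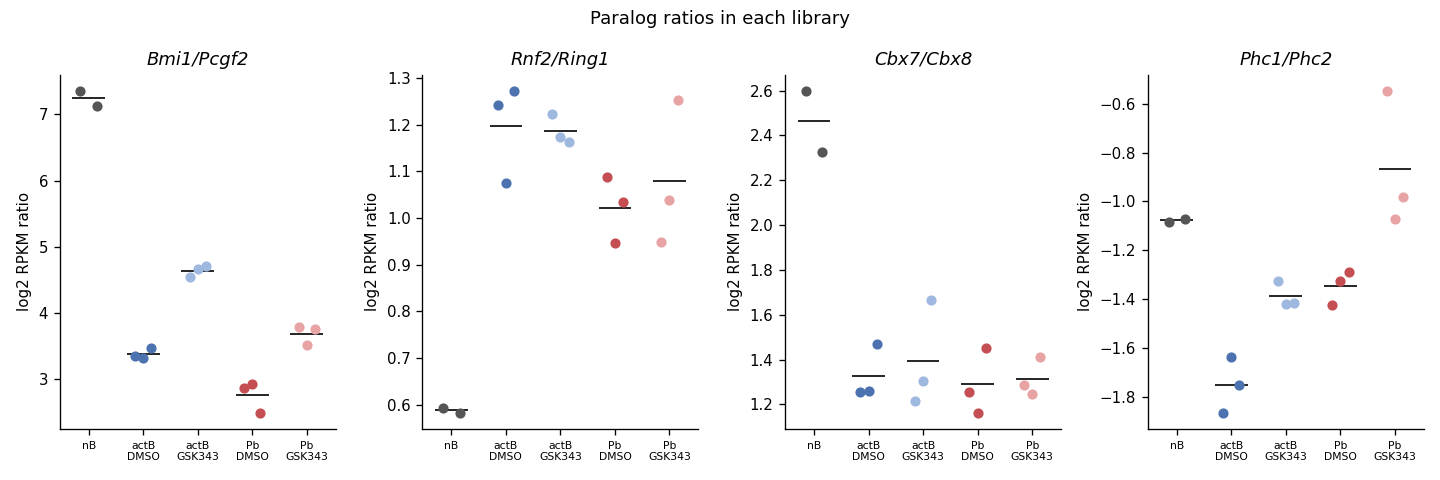
Log2 ratio of the RPKM of paralogs in each library (points) with the group mean (line), for nB (n = 2) and the 4 cultured groups (n = 3 each). The vertical axes differ between panels and do not start at 0. Bmi1/Pcgf2 and Phc1/Phc2 are higher with GSK343 than with DMSO in both cell types with no overlap, and Rnf2/Ring1 and Cbx7/Cbx8 overlap between DMSO and GSK343.

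Because Bmi1 and Pcgf2 were the subunits that moved in opposite directions in both cell types, the 250 bases before the start of each are shown from the RefSeq promoter table (GRCm38.p6, a later build than the mm9 of the counts), which held 8 of the 9 members. Capitals mark the palindromic E-box CACGTG, the site type bound by MYC, MAX and USF factors. It was the sole match among 4 motifs searched on both strands (CACGTG itself, the CCAAT box, and the palindrome TGACGTCA and the letters GGCGGGAA that CREB and E2F factors bind) in either window. The Bmi1 window is chr2:18676768-18677017 on the plus strand, and the Pcgf2 window is chr11:97699649-97699898 on the minus strand.
Bmi1: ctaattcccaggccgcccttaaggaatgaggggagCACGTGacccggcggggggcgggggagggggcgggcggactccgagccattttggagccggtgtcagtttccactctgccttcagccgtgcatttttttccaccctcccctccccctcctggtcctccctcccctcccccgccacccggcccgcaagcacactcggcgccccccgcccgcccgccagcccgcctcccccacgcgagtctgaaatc
Pcgf2: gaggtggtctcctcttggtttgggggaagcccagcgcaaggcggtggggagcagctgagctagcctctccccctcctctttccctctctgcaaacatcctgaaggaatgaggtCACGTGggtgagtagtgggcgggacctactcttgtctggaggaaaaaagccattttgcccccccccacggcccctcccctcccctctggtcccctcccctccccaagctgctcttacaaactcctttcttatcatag
Each window held 1 CACGTG, as did that of Cbx8 and 1 of the 3 windows of Phc2, and 6.02% of the 32841 promoter windows in the table held it. The shares for the motifs not found in the Bmi1 and Pcgf2 windows were 33.9% for CCAAT, 1.55% for TGACGTCA and 1.85% for GGCGGGAA. The windows of Ring1, Rnf2, Cbx7 and Phc1 held no CACGTG, and that of Cbx7 held 1 CCAAT. The windows differed in CpG content, with 21 CpG in Bmi1 (percentile 83.6 of all windows) and 5 in Pcgf2 (percentile 44.4). A match describes the letters and not binding.

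Bmi1 lies 786 bases downstream of Commd3 on the same strand. Commd3, a COMM domain gene, had a log2 fold change with GSK343 of 0.16 ± 0.07 in actB (adjusted p = 0.189) and 0.29 ± 0.07 in Pb (adjusted p = 0.0193), each smaller than that of Bmi1. From nB to actB, Commd3 rose by 0.43 ± 0.08 (adjusted p = 0.000341), where Bmi1 fell. Reads crossing between the genes could not be told apart from gene counts.

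Phc2 fell with GSK343 in Pb, from 7.11, 6.94 and 6.97 RPKM to 4.88, 6.08 and 5.64 RPKM (log2 fold change -0.33 ± 0.08, 95% interval -0.51 to -0.16, adjusted p = 0.0181). The call was lost in 4 of 6 fits that left out 1 library (those without Pb DMSO library 1 or 3 or without Pb GSK343 library 1 or 3; adjusted p at most 0.0717) and with the compared groups fitted alone (adjusted p = 0.0592). In actB the values were 15.4, 15.7 and 14.8 RPKM with DMSO and 13.2, 13.8 and 12.4 RPKM with GSK343. These groups did not overlap, as in 25.9% of the genes tested in actB. The log2 fold change of -0.21 ± 0.08 in actB (95% interval -0.39 to -0.04) did not pass (adjusted p = 0.113). Phc1 had log2 fold changes of 0.14 ± 0.09 (actB, adjusted p = 0.397) and 0.12 ± 0.09 (Pb, adjusted p = 0.441). The log2 ratio of Phc1 to Phc2 was higher with GSK343 by 0.36 in actB and 0.48 in Pb, with no overlap between groups (exact permutation p = 0.1 each).

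The catalytic subunits had values slightly above DMSO in actB that did not pass the test. With GSK343 Ring1 was at 9.44, 9.57 and 10.3 RPKM against 8.58, 9.09 and 8.92 with DMSO (log2 fold change 0.14 ± 0.05, 95% interval 0.02 to 0.25, adjusted p = 0.135). Rnf2 was at 22.0, 21.6 and 23.0 RPKM against 20.3, 19.2 and 21.5 (0.13 ± 0.06, 95% interval -0.01 to 0.26, adjusted p = 0.22). In both genes the actB groups did not overlap, as in 25.9% of the genes tested. In Pb both overlapped, with log2 fold changes of 0.07 ± 0.05 for Ring1 and 0.13 ± 0.06 for Rnf2.

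The CBX subunits did not pass the test in either cell type. Cbx7 had the narrowest 95% intervals of Cbx2, Cbx7 and Cbx8, -0.18 to 0.07 in actB and -0.14 to 0.10 in Pb. Cbx8 had -0.35 to 0.12 and -0.28 to 0.20, and Cbx2 had -0.15 to 0.35 and -0.44 to 0.06. In all 3 genes the libraries with DMSO and GSK343 overlapped in both cell types. Library by library, Cbx2 was higher with GSK343 at 3 of 3 replicate numbers in actB (log2 ratios 0.203, 0.0357 and 0.075) and lower at 3 of 3 in Pb (-0.14, -0.24 and -0.236). Cbx7 and Cbx8 were lower at 3 of 3 numbers in actB and of mixed sign in Pb. With the replicate block these genes did not pass either.

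No subunit had a GSK343 effect that differed detectably between actB and Pb in the interaction test of limma, where 0.248% of the genes tested did and 1017 of the 11299 had an unadjusted p under 0.05, with 0 of the 9 members among them. edgeR on the recovered reads also called 0 of 9. The replicate block called 0 of 9 too, with 1 of 9 at an unadjusted p under 0.05. With the block the adjusted p of Cbx2 was 0.19 to 0.268, against 0.686 without it. The difference (Pb minus actB, log2) was -0.13 ± 0.11 for Bmi1 (95% interval -0.38 to 0.11), 0.15 ± 0.13 for Pcgf2 (-0.13 to 0.43), -0.12 ± 0.11 for Phc2 (-0.36 to 0.13) and -0.29 ± 0.16 for Cbx2 (-0.64 to 0.06), so differences within these bounds cannot be set apart from 0.

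The rest of the PRC1 network was described by 23 further genes, of which 21 were tested. These are the other PCGF, CBX and PHC paralogs, the RYBP and YAF2 proteins of variant PRC1, and proteins that target or associate with the complexes. From nB to actB, 9 rose, 7 fell and 5 did not pass, near the 40.9% higher and 36.3% lower of all genes tested. Pcgf5, a PCGF of variant PRC1, rose by 1.40 ± 0.07 (adjusted p = 1.32e-09) and E2f6, a repressor in the PCGF6 complex, by 1.64 ± 0.10 (adjusted p = 1.14e-08). Scml4 fell by 2.76 ± 0.12 (adjusted p = 3.77e-10) and Rybp, which stimulates H2A ubiquitination in variant PRC1, by 0.84 ± 0.06 (adjusted p = 4.78e-08). The median log2 fold change was 0.08 over the list and 0.05 over all genes tested.

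From actB to Pb with DMSO, 1 of these 21 rose, 15 fell and 5 did not pass, where 27.3% of all genes tested were higher and 42.4% lower. The median was -0.38 over the list and -0.12 over all genes. After median scaling 2 rose and 14 fell. Max, the MYC partner that also belongs to the PCGF6 complex, fell by 1.61 ± 0.08 (adjusted p = 3.41e-09), Scml4 by 2.29 ± 0.10 (adjusted p = 1.49e-09), Kdm2b, which recruits a variant PRC1 to CpG islands, by 0.79 ± 0.06 (adjusted p = 8.65e-08), and Usp7, a deubiquitinase associated with PRC1, by 0.61 ± 0.04 (adjusted p = 7.66e-08). The gene that rose, named after its value was seen, was Bcorl1 (0.68, adjusted p = 6.07e-06), a corepressor related to BCOR. With GSK343 the counts were again 1, 15 and 5, and after median scaling 2 rose and 11 fell.

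With GSK343 against DMSO, 4 of the 21 rose and 1 fell in actB, and 3 rose and 2 fell in Pb, against 8.2% higher and 2.16% lower over all genes tested in actB, and 7.9% and 5% in Pb. With the replicate block (merged nB sample as number 1) 5 rose and 2 fell in actB, against 14.7% and 6.71% of all genes. In Pb the block gave 3 that rose and 4 that fell, against 13.7% and 10.9%. Pcgf5 rose in both, by 0.36 ± 0.06 in actB (adjusted p = 0.00335) and 0.34 ± 0.06 in Pb (adjusted p = 0.0037). Scmh1, a SAM domain protein that associates with PHC proteins, rose by 0.40 ± 0.07 in actB (adjusted p = 0.00393) and 0.44 ± 0.07 in Pb (adjusted p = 0.0019). Cbx6 rose by 0.35 ± 0.07 in actB (adjusted p = 0.00735) and 0.39 ± 0.07 in Pb (adjusted p = 0.00342). Usp7 fell by 0.22 ± 0.04 in actB (adjusted p = 0.00795) and Pcgf6 fell by 0.32 ± 0.09 in Pb (adjusted p = 0.0281). The remaining changes, named after their values were seen, were a rise of Rybp in actB (0.24, adjusted p = 0.015) and a fall of Max in Pb (-0.27, adjusted p = 0.0489). The Rybp call was lost with quantile normalization (adjusted p = 0.0603). The Max call was lost with median scaling (adjusted p = 0.05004) and with quantile normalization (adjusted p = 0.0661). Those gained with the block were Bcor (0.17, adjusted p = 0.0472) and Pcgf6 (-0.26, adjusted p = 0.0263) in actB and Usp7 (-0.14, adjusted p = 0.00765) and Csnk2a1 (-0.10, adjusted p = 0.0452) in Pb. Pcgf6 in actB also passed with edgeR (adjusted p = 0.0346), median scaling (0.03996) and quantile normalization (0.041). Usp7 in Pb also passed with edgeR (adjusted p = 0.0407), median scaling (0.0348), quantile normalization (0.0443) and without the libraries numbered 2 (0.03498).

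Of 7 genes for removal of ubiquitin from H2AK119, 4 rose and 1 fell from nB to actB, where 40.9% of all genes tested were higher and 36.3% lower. Asxl1, the partner of the deubiquitinase BAP1, rose by 0.76 ± 0.06 (adjusted p = 1.38e-07), while the deubiquitinase Usp21 fell by 0.60 ± 0.07 (adjusted p = 5.19e-06). From actB to Pb with DMSO, Usp16, an H2A deubiquitinase, rose by 0.61 ± 0.04 (adjusted p = 4.97e-08) and Asxl1 by 0.40 ± 0.05 (adjusted p = 2.43e-05). Usp22, named after its values were seen, fell by 0.35 ± 0.05 (adjusted p = 5.26e-05). In this step 27.3% of all genes tested were higher and 42.4% lower. With GSK343, 1 of 7 changed in actB by limma (Usp22, -0.18 ± 0.05, adjusted p = 0.0454), against 10.4% of the genes tested. In Pb 0 of 7 changed by limma, with 0 at an unadjusted p under 0.05, and 0 by edgeR, against 12.9% of the genes tested by limma. The Usp22 call was lost without the libraries numbered 2 (adjusted p = 0.123) and with quantile normalization (adjusted p = 0.0584). With the replicate block Asxl1 passed in Pb (-0.115, adjusted p = 0.0331).

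The PRC2 genes, whose product writes the mark that CBX proteins read, were listed for comparison. From nB to actB 8 of 11 rose and 3 fell, where 40.9% of all genes tested were higher and 36.3% lower, with Ezh2, the enzyme GSK343 inhibits, going from 14.03 ± 0.36 RPKM (SD, n = 2) to 101 ± 6.3 (SD, n = 3; log2 fold change 2.83 ± 0.09, adjusted p = 2.96e-11) and Phf1, an accessory subunit, falling by 2.83 ± 0.11 (adjusted p = 2.24e-10). From actB to Pb with DMSO 3 rose and 6 fell (27.3% and 42.4% of all genes tested), with Eed at -0.55 ± 0.06 (adjusted p = 3.86e-06) and Aebp2 at 0.45 ± 0.05 (adjusted p = 7.2e-06). With GSK343 0 of 11 passed in either cell type by limma, against 10.4% of the genes tested in actB and 12.9% in Pb. At an unadjusted p under 0.05 there were 1 in actB and 2 in Pb, and 0 passed by edgeR. The values with the lowest adjusted p by limma were Ezh2 in actB (0.25 ± 0.08, adjusted p = 0.0705) and Jarid2 in Pb (0.16 ± 0.06, adjusted p = 0.106). With the replicate block Ezh2 passed in actB (adjusted p = 0.00218) and Suz12, a core PRC2 subunit, in Pb (-0.14, adjusted p = 0.0278). Ezh2 in actB also passed with quantile normalization (adjusted p = 0.0256) and without the libraries numbered 2 (adjusted p = 0.00649). Without those libraries Jarid2 passed in Pb (adjusted p = 0.0439).

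The 3 cell cycle inhibitor genes known as PRC1-repressed loci in other cells were all higher in the cultured cells. Of all genes tested, 40.9% were higher from nB to actB and 39.5% from nB to Pb, both with DMSO. Cdkn2a, which encodes INK4A and ARF, went from 0.134 ± 0.082 RPKM in nB (SD, n = 2) to 21.1 ± 3.1 in actB (SD, n = 3; log2 fold change 5.80 ± 0.16, adjusted p = 1.17e-11) and was at 21.4 ± 1.8 in Pb with DMSO. Cdkn2b went from 0.328 ± 0.020 RPKM to 3.21 ± 0.59 and then 10.3 ± 1.1 (log2 fold change from actB to Pb 1.61 ± 0.12, adjusted p = 1.54e-07). With GSK343 Cdkn2b was lower in actB by 0.43 ± 0.12 on the log2 scale (adjusted p = 0.0469) and Cdkn1a was higher in Pb by 0.77 ± 0.19 (adjusted p = 0.0182), while Cdkn2a had -0.35 ± 0.15 in actB (adjusted p = 0.157) and 0.21 ± 0.15 in Pb (adjusted p = 0.398). The Cdkn2b call was lost without the libraries numbered 2 (adjusted p = 0.1505), and with the replicate block Cdkn2a passed in actB (adjusted p = 0.0275). Cdkn1a, the p21 gene, had also risen from nB to actB, by 2.34 ± 0.21 (adjusted p = 4.34e-07).

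For each member, the genes with the most similar levels across the 14 samples are given as a description. These points share cell stage as their main source of spread. Cbx2 was most like Dnmt1, the maintenance DNA methyltransferase (Pearson r = 0.993), and Zmynd19 (0.99). Phc2 was most like Ebf1, a B lineage transcription factor (0.996), and Smarcd2 (0.994). Ring1 was most like Hsdl1 and Spns2 (0.996 each), Rnf2 like Ate1 (0.992) and Lynx1 (0.988), Phc1 like Snx8 (0.993) and Dexi (0.992), and Cbx7 like Pik3cb and Zfp36 (0.988 each). Pcgf2 was most like Agpat5 (0.987) and Asns (0.986). The likeness was least close for Cbx8, with Dvl3 (0.962) and Ppp2r5a (0.958), and for Bmi1, with Ugp2 (0.943) and Fryl (0.934).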

How the data were processed

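RNA was polyA selected and sequenced in 15 libraries (5 groups of 3). Per the study's methods, the authors mapped 50-base read pairs to mm9 with TopHat2, counted reads over exons of unique Entrez genes with GenomicRanges 1.22.4, and deposited RPM and RPKM values per library with the gene length; whether strand was used is not given in the sources used here. The deposited RPM values were whole multiples of 1 read (100% of values, tolerance 0.1 read), so reads were recovered from them. Rows without a symbol (92, at most 0.0905% of reads) were left out.

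log2(RPKM + 0.25) of 11299 genes was fitted with limma 3.58.1 (R 4.3.3) across 14 samples, 9 residual degrees of freedom, with Benjamini-Hochberg adjustment over all genes. Ratios were tested by exact permutation over samples. limma and edgeR were also run on simulated data with 200 genes changed, after the fits to the real data. The simulation gave all genes the same dispersion and had no replicate structure, and its outcome is not given here. Alternatives were other pseudocounts, filters and scalings, edgeR 4.0.16 on recovered reads, fits of compared groups alone, the replicate block, libraries left out, and, chosen after seeing the data, GENCODE vM1 exon lengths. Deviations of samples with the same replicate number in their titles correlated in every pair (r from 0.158 to 0.713). Over 36 pairs with different numbers r was -0.603 to 0.37. Deviations within a group sum to 0, so positive r at the same number brings lower r at different numbers, and the latter is not separate evidence. In every pair of cultured groups each sample had its highest r with the sample of its own number, with a single exception. For actB DMSO library 3, r was 0.37 with actB GSK343 library 1 and 0.356 with library 3. Samples with the same number thus shared deviations, and the labels do not say what the number stands for. The main fit has no block, so its SE, intervals and p-values are unpaired and leave these shared deviations out of account. The block is an alternative.

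The members and the lists were chosen with earlier results of these data known. The list of further PRC1 genes is given without 1 gene, and shares within the CBX family are not reported here. The text names all members, in each comparison at most 4 of the further PRC1 genes and 2 of each other list with the lowest adjusted p, and the 2 genes with the highest correlation to each member. At these depths 3 reads correspond to 0.114 to 0.155 RPM.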

Additional observations from a re-analysis of the deposited data

How the results depend on the processing

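The counts of changed subunits stayed within 1.5 times of those reported except with GSK343. In actB, the minimum of 3 RPKM removed Pcgf2 from the test and left 1 subunit called; in Pb, the compared groups fitted alone left 1, and fits without 1 library called 1 to 3. Fits without 1 library gave both signs, around values that never passed, for Cbx2 in actB (-0.0221 to 0.197), Cbx8 in Pb (-0.0988 to 0.0448) and Cbx7 in Pb (-0.063 to 0.021). The lowered Bmi1 from actB to Pb with DMSO also lost its call with quantile normalization (adjusted p = 0.0895) and edgeR with RLE (adjusted p = 0.107). The Cbx8 call from nB to Pb was also lost without every cultured library numbered 2 (adjusted p = 0.0967). The cause of these losses was not tested.

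With the replicate block the members called were 9 from nB to actB, from actB to Pb and from nB to Pb, 2 with GSK343 in actB and 3 in Pb, as without it, and no call on a member changed. Over all genes the block raised the calls with GSK343 from 1170 to 2417 in actB, from 1458 to 2780 in Pb and, for the interaction, from 28 to 222 with the merged nB sample as number 1, and to 1934, 2319 and 61 with it as number 2. The compared groups alone gave 386 genes in actB and 4 for the interaction, fits without 1 library 608 to 1363 in actB, 690 to 1304 in Pb and 0 to 58 for the interaction, and the interaction had 18 genes with quantile normalization and 48 with all 15 columns as deposited. Paired sign-flip tests of ratios cannot go below 0.25 with 3 pairs.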
